A study of Homo sapiens with 4 samples.

Results

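Among human colon cells in which APC had been knocked down, those carrying transcripts of the Wnt feedback genes AXIN2, NKD1, APCDD1 or LEF1 were described. A cell was a member if it held 1 or more UMIs (unique molecular identifiers, each standing for 1 captured transcript) of any of the 4 genes. Members numbered 219 of the 1505 shAPC cells that had at least 2000 genes and under 5% mitochondrial UMIs, with 69 of 581 at day 3 and 150 of 924 at day 7. The series as a whole held 3212 such cells of 9205 deposited. Each member was paired, within its library, with 1 cell that had none of these transcripts and a similar total of UMIs. These comparison cells had 4672894 UMIs at day 3 against 4675288 in members, and 4216718 against 4216863 at day 7. Because the 4 genes chose the cells, their own levels are a description and support nothing.

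The cells were HCEC 1CT, a human colonic epithelial cell line immortalised with TERT and CDK4 and grown with EGF, hydrocortisone, insulin, selenite, transferrin and serum. They were transduced with 1 short hairpin RNA against APC (shAPC) or with a scrambled hairpin (shScr), selected with puromycin, and harvested 3 or 7 days later for 10x Genomics 3′ single-cell RNA sequencing. Whether the transduced cells came from 1 clone is not given in the sources used here. Hairpin and harvest day thus gave 4 groups of 1 library each, which left every difference without a replicate check, a test or a p-value. The shAPC libraries of day 3 and day 7 hold different cells and serve as the only repeat of each other, although they also differ in time. They had 2 cell barcodes in common, and 5 members at day 3 and 0 at day 7 carried a barcode that another library also held. Kept cells had a median of 57250 UMIs at day 3 and 28220 at day 7 in shAPC, whereas shScr cells had 51580 and 28780.

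APC is a scaffold of the complex that marks β-catenin for destruction. When β-catenin escapes, it enters the nucleus, binds TCF and LEF factors and switches on targets that include its own brakes. AXIN2 is a scaffold of the destruction complex, NKD1 binds Dishevelled and dampens the signal, APCDD1 is a membrane inhibitor that binds Wnt ligands, and LEF1 is itself a β-catenin partner on DNA. In colon such genes are used as readouts of Wnt activity.

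DNA just upstream of a RefSeq start is shown so that the readouts can be set beside their sequence. The genes are LEF1 and APCDD1, which chose the cells, and DKK1, a secreted Wnt antagonist with a lower level in members. The 250 bases before each start come from RefSeq (GRCh38.p14), at chr4:108166302-108166551 on the minus strand for LEF1, chr18:10454385-10454634 on the plus strand for APCDD1 and chr10:52314031-52314280 on the plus strand for DKK1. They were searched on both strands for CTTTGAT and CTTTGAA, the core bound by TCF and LEF factors. Capitals mark the match, of which DKK1 had 1 and the others none. By the GENCODE annotation LEF1 starts at 108168956 on the minus strand, so the LEF1 window lies inside the gene. Its lack of a match therefore does not describe the bases before that annotated start. One or more matches were found in 5.94% of 35116 promoter windows of this length. RAB27B, a gene higher in members, also had 1 match, in a window inside the gene at chr18:54828227-54828476. Its window at chr18:54717607-54717856 had 0. A match is only a description of these letters. AXIN2, NKD1 and CCND2 had no entry.
LEF1: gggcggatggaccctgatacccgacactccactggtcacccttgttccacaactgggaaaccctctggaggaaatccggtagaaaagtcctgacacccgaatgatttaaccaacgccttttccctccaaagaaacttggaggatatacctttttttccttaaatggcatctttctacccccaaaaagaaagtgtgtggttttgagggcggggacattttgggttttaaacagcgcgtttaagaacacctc
APCDD1: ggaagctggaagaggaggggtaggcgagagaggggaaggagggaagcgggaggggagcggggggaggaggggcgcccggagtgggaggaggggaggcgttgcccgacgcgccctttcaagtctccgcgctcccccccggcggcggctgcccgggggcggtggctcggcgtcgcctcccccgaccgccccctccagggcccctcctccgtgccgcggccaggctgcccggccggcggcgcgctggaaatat
DKK1: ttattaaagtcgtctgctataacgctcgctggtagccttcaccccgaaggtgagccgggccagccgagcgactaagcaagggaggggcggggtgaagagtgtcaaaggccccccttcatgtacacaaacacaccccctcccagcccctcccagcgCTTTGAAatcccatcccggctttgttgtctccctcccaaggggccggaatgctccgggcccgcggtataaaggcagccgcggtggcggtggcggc

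The selection was sparse, with most members resting on 1 transcript. At day 3, 57 of the 69 members held exactly 1 marker UMI, 10 held 2, 1 held 3 and 1 held 4. At day 7, 105 of 150 held exactly 1, 20 held 2, 16 held 3, 5 held 4 and 2 held 5, while 1 cell held 7 and 1 held 16. AXIN2 led at both days, with 57 UMIs in 52 cells at day 3 and 112 UMIs in 93 cells at day 7. NKD1 had 12 UMIs in 11 cells and 57 UMIs in 39 cells. LEF1 had 14 UMIs in 12 cells and 31 UMIs in 28 cells. APCDD1 had a single UMI at day 3 and 46 UMIs in 26 cells at day 7, 11 of them in 1 cell. Over all kept shAPC cells the 4 genes summed to 2.44 CPM (UMIs scaled to a total of 1000000; exact Poisson 95% interval 1.95 to 3.03) at day 3 and 9.02 CPM (7.92 to 10.2) at day 7. In shScr the same sum was 0.668 CPM (0.437 to 0.979) from 26 UMIs at day 3 and 1.03 CPM (0.698 to 1.48) from 30 UMIs at day 7. All intervals here and below cover counting error only.

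Members were a larger share of shAPC than of shScr cells at both days. The unthinned share was 11.9% (exact binomial 95% interval 9.36 to 14.8) in shAPC and 3.40% (2.23 to 4.94) in shScr at day 3, and 16.2% (13.9 to 18.8) and 3.08% (2.07 to 4.39) at day 7. Since a deeper cell is more likely to show a rare transcript, each cell was also thinned to 10000 UMIs, which left out 7 to 29 shallower cells per library. The share then became 2.80% (16 of 571 cells, 1.61 to 4.51) in shAPC day 3 against 0.398% (3 of 753, 0.0822 to 1.16) in shScr day 3. At day 7 it was 7.53% (69 of 917, 5.90 to 9.43) against 1.10% (10 of 913, 0.526 to 2.01). The shAPC and shScr intervals did not overlap at either day. The shScr shares stand here as the background level of marker detection in cells with the scrambled hairpin.

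The share of members was larger in deeper cells at day 3 and smaller in deeper cells at day 7. With the kept cells of each library split into 3 groups of rising total UMIs, members made up 9.28%, 10.8% and 15.5% at day 3, while the summed marker level stayed at 2.48, 2.25 and 2.56 CPM. The day 7 shares were 18.2%, 16.2% and 14.3%, and the level was 16.9, 9.36 and 5.00 CPM. Marker level was thus highest in the shallowest day 7 cells.

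The share of mitochondrial UMIs moved with the markers in shAPC. Among day 7 shAPC cells of at least 2000 genes, the summed marker level was 2.82 CPM (1.22 to 5.56) below 3% mitochondrial UMIs, 9.73 (8.54 to 11.1) from 3% to 5%, 17.8 (15.9 to 19.8) from 5% to 7%, 29.5 (25.04 to 34.57) from 7% to 10% and 36.2 (24.4 to 51.6) from 10% upwards. At day 3 the level was 1.34 CPM below 3%, 2.93 from 3% to 5% and 5.38 from 5% to 7%. In shScr it lay between 0.300 and 1.91 CPM in every band. The selection below 5% therefore held the part of the day 7 library with the lower marker levels. Members and comparison cells had median mitochondrial shares of 3.82% and 3.46% at day 3, against 4.31% and 4.24% at day 7. The part of the mitochondrial share in the results below was not tested, but results are also given for comparison cells matched on both UMIs and this share.

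**Figure D1:**
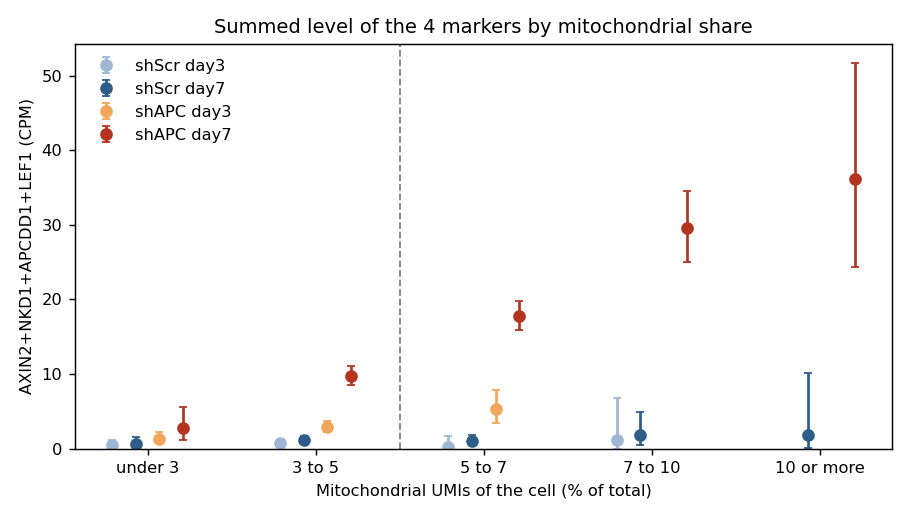
Summed level of AXIN2, NKD1, APCDD1 and LEF1 in CPM (vertical axis) against the mitochondrial share of the cells in percent (horizontal axis), for cells of at least 2000 genes in each library, with exact Poisson 95% intervals as bars and the 5% limit as a dashed line. The shAPC day 7 points climb from 2.82 to 36.2 CPM, whereas every shScr point lies between 0.300 and 1.91 CPM.

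Transcripts of the 4 genes occurred in the same cells more often than in depth-matched cells at day 7. To read genes that did not choose the cells, AXIN2 alone was used to pick cells and the other 3 genes were read. Of 93 AXIN2 cells, 25 (26.9%, 18.2 to 37.1) carried NKD1, APCDD1 or LEF1, against 8 of 93 matched cells without AXIN2 (8.60%, 3.79 to 16.2) and 57 of all 831 (6.86%). Picked the other way, 25 of 82 cells with NKD1, APCDD1 or LEF1 (30.5%, 20.8 to 41.6) carried AXIN2, against 3 of 82 matched cells (3.66%, 0.761 to 10.3). NKD1 cells overlapped most, with another marker in 22 of 39 (56.4%, 39.6 to 72.2) against 5 of 39 matched cells (12.8%, 4.30 to 27.4). APCDD1 cells had another marker in 9 of 26 and LEF1 cells in 9 of 28. The most frequent pair was AXIN2 with NKD1, in 13 cells, and 4 cells held AXIN2, NKD1 and LEF1. At day 3 the counts were small, with 5 of 52 AXIN2 cells (9.62%, 3.20 to 21.0) against 1 of 52 matched cells (1.92%, 0.0487 to 10.3). No cell at either day held all 4 genes.

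The name of the line was checked against markers of colon epithelium. In the kept shAPC cells EPCAM had 1 and 2 UMIs at days 3 and 7, CDH1 0 and 1, and VIL1 2 and 0. CDX2, KRT20, MUC2 and LGR5 were at 0 in both libraries, which with a floor of 3 counts allows up to 0.0873 CPM at day 3 and 0.110 CPM at day 7. The keratins KRT8 and KRT18 were present at 19.3 and 7.07 CPM at day 3 and 15.2 and 2.86 CPM at day 7. KRT19 was at 5.47 and 4.14 CPM and CLDN7, of tight junctions, at 16.9 and 6.38 CPM. Mesenchymal genes were abundant, with VIM at 4964 and 4026 CPM, FN1 at 3306 and 2819 CPM and COL1A1 at 1538 and 1493 CPM. Markers of blood and endothelial cells were at or near 0, with PTPRC at 0 and 1 UMI and PECAM1 and CD3E at 0, while HBB had 21 and 3 UMIs and ALB 2 and 1. CD68, also found outside macrophages, stood at 29.7 and 22.2 CPM. Among the members themselves EPCAM and CDH1 had 0 UMIs at day 3 and 1 each at day 7, and the cells are referred to here by their transcripts.

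APC, the target of the hairpin, differed by less than counting error between members and comparison cells. APC (chromosome 5, 112707518 to 112846239, plus strand, GENCODE 44 on GRCh38) had 17 UMIs in members and 20 in comparison cells at day 3, or 3.64 and 4.28 CPM, a log2 ratio of -0.24 with an exact conditional binomial 95% interval from -1.26 to 0.77. Day 7 gave 23 and 26 UMIs, or 5.45 and 6.17 CPM, a log2 ratio of -0.18 (-1.05 to 0.69). An APC UMI was seen in 21.7% of members and of comparison cells at day 3, and in 14% and 14.7% at day 7. Over 16 alternatives the ratio lay between -0.84 and 0.21 at day 3 and between -0.65 and 0.41 at day 7. A difference in APC was not detectable at this depth. For scale, all kept shAPC cells had 5.56 and 6.67 CPM of APC at days 3 and 7, against 16.2 and 19.7 CPM in shScr.

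Few other genes separated the members from cells of equal depth. Among genes of at least 20 CPM on either side, 83 of 5514 were at least 1.5-fold higher in members at day 3 (1.51%) and 49 were lower (0.889%). At day 7, 87 of 4561 were higher (1.91%) and 73 lower (1.6%). The fold was taken on CPM plus 1. The median log2 ratio of all these genes was 0.02 at day 3 and -0.00 at day 7, with an SD across genes of 0.26 at both. A single cell supplied over 50% of the higher side's UMIs for 8 of the 83 and 5 of the 49 genes at day 3, among them MT1G, ATF3, CXCL2, CCL5 and IFNB1, and for 0 of the 87 and 2 of the 73 at day 7.

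The days were then set side by side. Across the 4427 genes tested at both days the ratios had a Pearson r of 0.124 and a Spearman rho of 0.111, as a description, since genes are not independent. The same sign was found for 53.2% of them. Past 1.5-fold at both days were 10 genes higher in members, which made up 26.3% of the 38 such genes at day 3 and 13.9% of the 72 at day 7, among the 4427 genes tested at both. Another 4 genes were lower at both, 15.4% of 26 and 5.97% of 67, and 6 genes went opposite ways. Agreement of these genes between the days is fixed by how they were picked. The 10 higher genes were CCND2, RAB27B, TCF21, KLF9, TRIM16, ST3GAL5, ZNF503, XAF1, MT1F and TP53INP1. The 4 lower genes were CSF3, SPRY4, SDC4 and ELL2.

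**Figure D2:**
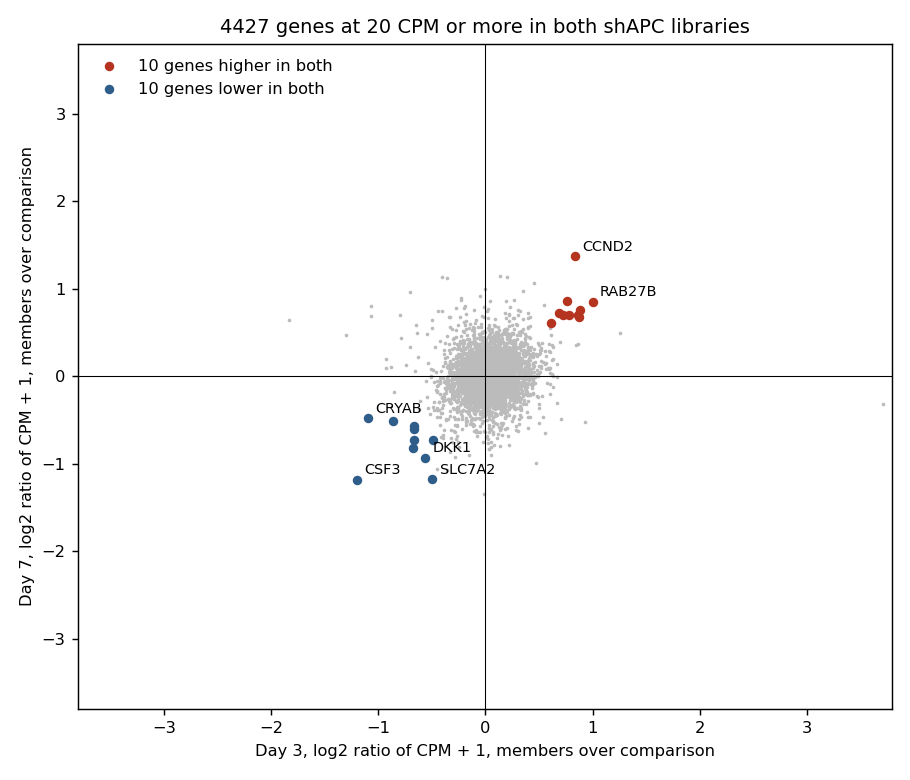
Each point is 1 of 4427 genes, with the log2 ratio of CPM plus 1 between members and comparison cells at day 3 on the horizontal axis and at day 7 on the vertical axis, and the 10 highest and 10 lowest genes by the smaller of the 2 ratios in colour. Most genes lie in a round cloud about 0, and CCND2 stands highest of the coloured genes at day 7.

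CCND2 was the most distinct of these genes at day 7. It encodes cyclin D2, which activates CDK4 and CDK6 to drive cells from G1 into S phase, and lies on chromosome 12 at 4269771 to 4305353 on the plus strand. At day 7 it had 373 UMIs in members and 141 in comparison cells, 88.5 against 33.4 CPM, a log2 ratio of 1.40 (1.12 to 1.69). It was seen in 48.7% of members (40.4 to 57.0) and in 33.3% of comparison cells (25.9 to 41.5). At day 3 the summed level was 51.6 against 28.5 CPM (241 and 133 UMIs, log2 ratio 0.86, 0.55 to 1.17), although fewer members than comparison cells had a UMI (31.9% and 39.1%). One day 3 member held 64 of the 241 UMIs. Leaving out the top cell of each side gave ratios of 0.69 (0.34 to 1.04) at day 3 and 1.44 (1.15 to 1.74) at day 7. Against cells matched on mitochondrial share as well, it was 0.50 and 1.20.

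The CCND2 ratio varied with the marker that picked the cells, in a different order at each day. At day 7, cells picked by AXIN2 had 117.1 CPM against 27.9 CPM in their matched cells, a log2 ratio of 2.07 (1.69 to 2.46). For NKD1 cells the ratio was 0.67 (0.14 to 1.22), for APCDD1 cells 0.78 (0.17 to 1.42, from 102.5 against 59.5 CPM) and for LEF1 cells 0.15 (-0.64 to 0.94). At day 3 it was 0.86 (0.53 to 1.20) for AXIN2 cells, 1.69 (0.97 to 2.47) for NKD1 cells with 68 UMIs against 21, and 2.10 (0.88 to 3.53) for LEF1 cells with 30 against 7. The direction was the opposite in shScr, where the 26 cells with a marker UMI at day 3 had 14 CCND2 UMIs against 46 in matched cells (log2 ratio -1.72, -2.69 to -0.83), and the 29 at day 7 had 3 against 23. Each of these shScr cells rested on 1 marker UMI except 1 cell with 2. Over all kept cells CCND2 was at 16.1 and 19.02 CPM in shScr and at 27.6 and 44.1 CPM in shAPC at days 3 and 7.

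The other genes higher at both days have varied roles. RAB27B, a small GTPase of vesicle secretion, had 119 UMIs against 57 at day 3 and 128 against 69 at day 7, log2 ratios of 1.06 (0.59 to 1.54) and 0.89 (0.46 to 1.34). TCF21, a basic helix-loop-helix factor of mesenchymal cells unrelated to the TCF factors of Wnt signalling, had ratios of 0.78 (0.48 to 1.08) and 0.90 (0.51 to 1.29). The day 3 ratio of TCF21 was 0.63 without the top cell of each side. KLF9, a zinc finger factor induced by glucocorticoids, had ratios of 0.81 and 0.73. ST3GAL5, which makes the ganglioside GM3, had ratios of 0.90 and 0.70, and ZNF503, a zinc finger repressor, 0.70 and 0.73. XAF1, an interferon-inducible gene linked to cell death, had 432 UMIs against 259 at day 3 and 100 against 60 at day 7, both ratios 0.74. TP53INP1, a p53 target, had ratios of 0.63 and 0.62. TRIM16 (0.92 and 0.80) and MT1F (0.88 and 0.71) have close copies in the genome among which reads can be split, so their values are uncertain. For each of these 9 genes the share of cells with a UMI was higher in members than in comparison cells at both days. In the day 3 cells above the mitochondrial limit, described below, RAB27B (-0.59), KLF9 (-0.59), TP53INP1 (-0.23) and ZNF503 (-0.07) had ratios below 0, each with an interval that included 0. In shScr cells with a marker UMI, all 9 genes had intervals that included 0 at both days.

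Genes lower in members included a cytokine, a chemokine and an inhibitor of growth factor signalling. CSF3, the granulocyte colony-stimulating factor, had 124 UMIs against 290 at day 3 and 43 against 103 at day 7, log2 ratios of -1.23 (-1.54 to -0.92) and -1.26 (-1.81 to -0.73). SPRY4, a feedback inhibitor of ERK signalling, had ratios of -0.70 and -0.87, and SDC4, a cell surface heparan sulfate proteoglycan, -0.68 and -0.76. ELL2, a transcription elongation factor, had 426 UMIs against 680 and 403 against 614, ratios of -0.68 (-0.85 to -0.50) and -0.61 (-0.79 to -0.42). CRYAB, a small heat shock protein, had ratios of -1.14 and -0.49, DBI, which binds acyl-CoA, -0.49 and -0.74, and SLC7A2, a transporter of cationic amino acids, -0.51 and -1.25. The day 3 ratio of SLC7A2 became 0.12 when mitochondrial share was matched and 0.21 without barcodes held by another library. The chemokine gene CXCL3 (-0.87 and -0.52) and PSG4 (-0.68 and -0.60) belong to families of similar sequence and are uncertain for that reason. PSG4 at day 3 was at 0.01 once the 5% deepest cells were left out. In the day 3 cells above the mitochondrial limit SDC4 (0.48), CXCL3 (0.39), SLC7A2 (0.37) and DBI (0.06) had ratios above 0, each with an interval that included 0. In shScr cells with a marker UMI, CXCL3 (-0.39 and -1.45) and CRYAB (-0.39 and -0.40) were also lower at days 3 and 7, with intervals below 0. There SDC4 had 0.38 and -1.05, PSG4 -0.98 and 1.11, and ELL2 -0.02 and -0.71. CSF3 had 1.02 (0.44 to 1.62) and 0.57 (-0.17 to 1.33). SPRY4, SLC7A2 and DBI had intervals that included 0 at both days.

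**Figure D3:**
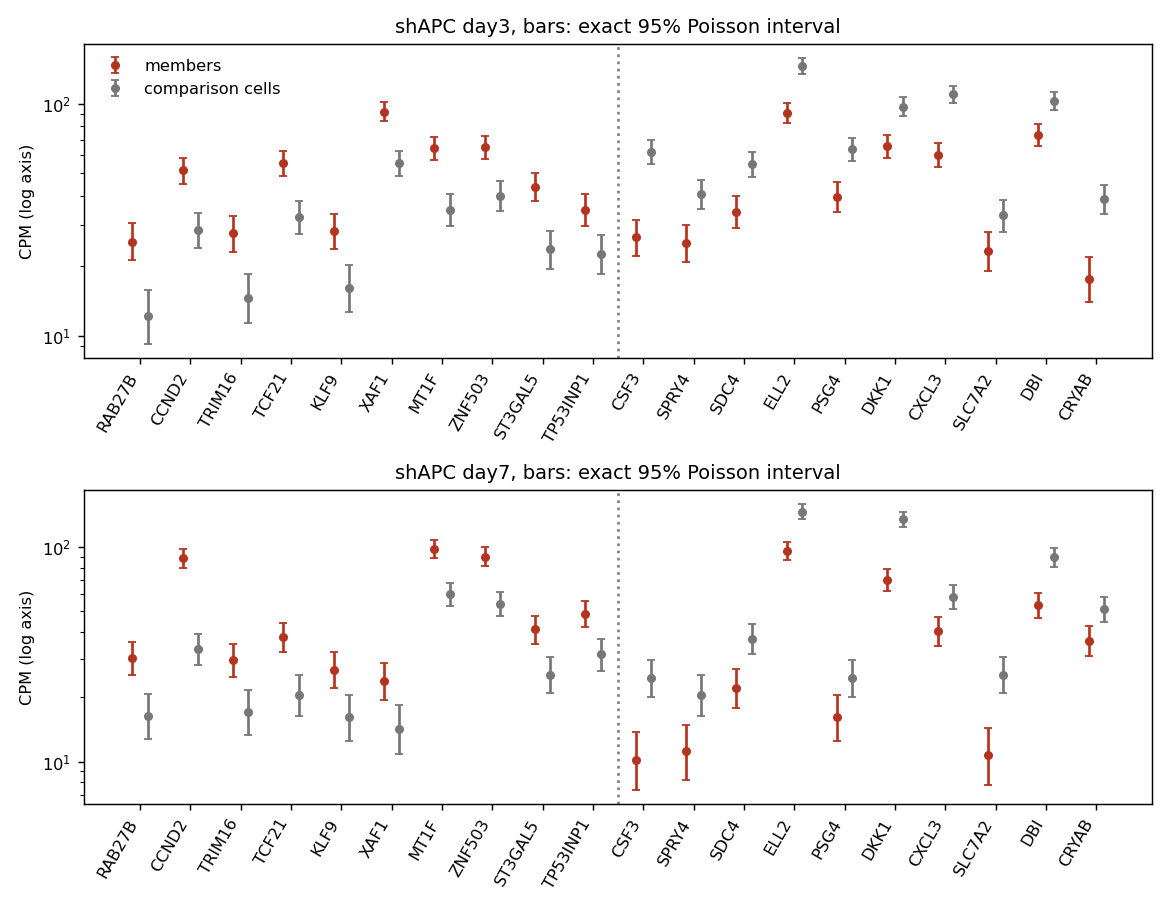
Level in CPM on a log axis of the 10 highest and 10 lowest genes by the rule, in members and in depth-matched comparison cells of shAPC day 3 and shAPC day 7, with exact Poisson 95% intervals. CCND2 at day 7 stands at 88.5 CPM in members and 33.4 CPM in comparison cells, and CSF3 at 10.2 and 24.4 CPM.

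DKK1, a secreted antagonist that blocks the Wnt co-receptors LRP5 and LRP6 and is itself a Wnt target in many cells, was lower in members. At day 7 it had 296 UMIs against 567, or 70.2 against 134.5 CPM, a log2 ratio of -0.94 (-1.15 to -0.73), and was seen in 56.0% of members (47.7 to 64.1) and 76.0% of comparison cells (68.4 to 82.6). At day 3 it had 306 UMIs against 454, or 65.5 against 97.2 CPM, a ratio of -0.57 (-0.78 to -0.36). When the mitochondrial share was matched too, the ratios were -0.16 at day 3 and -0.75 at day 7, and in the day 3 cells above the mitochondrial limit the ratio was 0.25 (-0.15 to 0.66). At day 7 the DKK1 ratio was -1.10 (-1.37 to -0.84) in cells picked by AXIN2, -1.45 (-1.88 to -1.04) by NKD1 and -0.96 (-1.60 to -0.34) by APCDD1, but 0.41 (-0.09 to 0.91) by LEF1. In shScr, cells with a marker UMI had more DKK1 than matched cells, with ratios of 0.44 (0.13 to 0.76) at day 3 and 0.48 (0.14 to 0.82) at day 7. Those shScr marker cells stood at 129.9 and 192.7 CPM, and their matched cells at 95.6 and 138.5 CPM. All kept shScr cells had 118.3 and 188.7 CPM, so the marker cells lay nearer the library level than the matched cells did. Of the genes with upstream sequence printed above, DKK1 (chromosome 10, 52314281 to 52318042, plus strand) is the one with a match. A RAB27B window also had 1, although RAB27B was higher in members.

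The wider Wnt pathway was read from lists by role, in which a gene was measured if it had at least 10 UMIs over members and comparison cells together. Of 20 measured feedback genes and targets outside the rule, 4 were at least 1.5-fold higher in members and none lower at day 3, against 6.3% higher and 3.32% lower of 12644 genes with as many UMIs. At day 7, 4 of 19 were higher and 1 lower, against 5.67% and 4.94% of 12265. The median log2 ratio of the list was 0.11 at day 3 and 0.16 at day 7, where all genes had 0.04 and -0.00. By any amount, 11 of the 20 were higher at day 3 and 14 of the 19 at day 7, against 55.3% and 49.3% of all genes. The summed level of the list had a ratio of 0.00 (-0.05 to 0.06) at day 3 and -0.08 (-0.14 to -0.02) at day 7.

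Among targets, BMP4 stood apart at both days. BMP4, a secreted ligand of the BMP pathway, had 49 UMIs against 26 at day 3 (10.5 and 5.56 CPM, log2 ratio 0.91, 0.20 to 1.66) and 45 against 15 at day 7 (10.7 and 3.56 CPM, 1.59, 0.71 to 2.54). PRICKLE1, of the planar cell polarity branch, had 21 UMIs against 1 at day 3, 7 of them in 1 cell, and 11 against 4 at day 7. At day 3 it stood at 4.49 CPM in members and 0.214 CPM in comparison cells, but at 1.18 CPM in all cells without a marker UMI. The 12 day 3 cells with 2 or more marker UMIs had 0 PRICKLE1 UMIs. SOX4, a transcription factor that can enhance β-catenin and TCF activity, had 194 UMIs against 157 at day 3 (0.30, -0.01 to 0.62) and 303 against 201 at day 7 (0.59, 0.33 to 0.86). TCF7, another partner of β-catenin, had 23 against 12 and 17 against 12 UMIs, with intervals that include 0. ZNRF3, a ubiquitin ligase that removes Wnt receptors, had 19 against 20 UMIs and 27 against 15. The common targets CCND1 (0.09 and -0.16) and MYC (-0.27 and 0.09) had small ratios of changing sign.

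TCF factors, ligands and secreted inhibitors were read next. Of 14 measured TCF factors and corepressors, 2 were past 1.5-fold higher and 1 lower at day 7, against 5.67% and 4.94% of all genes. At day 3, 0 of 13 passed in either direction, against 6.3% and 3.32%. By any amount, 11 of 13 were higher at day 3 and 5 of 14 at day 7, against 55.3% and 49.3% of all genes. The summed level had a ratio of 0.21 (0.12 to 0.30) at day 3 and -0.00 (-0.11 to 0.10) at day 7. TCF7L2, the main TCF factor of colon epithelium, had 104 UMIs against 61 at day 7 (0.77, 0.30 to 1.25) and 68 against 57 at day 3 (0.25, -0.28 to 0.79). TLE4, a corepressor that binds TCF factors, had 149 against 90 at day 7 (0.73, 0.34 to 1.12), and TCF7L1 had 3 against 12. WNT5A, a ligand of non-canonical signalling, had 718 UMIs against 455 at day 7, or 170.3 against 107.9 CPM (0.66, 0.49 to 0.83), and 347 against 325 at day 3 (0.09, -0.13 to 0.32). WNT5B was lower at day 7, with 123 UMIs against 182 (-0.57, -0.91 to -0.23). DKK2, a relative of DKK1 that can inhibit or support Wnt signalling, had 44 UMIs against 14 at day 7 (10.4 and 3.32 CPM, 1.65, 0.76 to 2.63) and 6 against 14 at day 3. It was the gene of the 4 measured secreted antagonists outside the target list that passed 1.5-fold, lower at day 3 and higher at day 7. The day 3 call is uncertain, since 1 comparison cell held 5 of the 14 UMIs. Without the top cell of each side the day 3 ratio was -1.16 (-3.31 to 0.69). Comparison cells had 3.00 CPM of DKK2 at day 3, where all kept shAPC cells had 1.63 CPM. Among 17 measured ligands and receptors 2 were higher and 1 lower at day 7, against 5.67% and 4.94% of all genes. At day 3 the counts were 1 and 0, against 6.3% and 3.32%.

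The destruction complex and β-catenin list had no gene past 1.5-fold higher in members at either day. Of its 20 measured genes at day 3 none passed 1.5-fold in either direction, against 6.3% higher and 3.32% lower of all genes. Of 19 at day 7 none was higher and 2 were lower, against 5.67% and 4.94%. CTNNB1, which encodes β-catenin, had ratios of 0.01 and -0.06. AXIN1, the constitutive relative of AXIN2, had 16 UMIs against 31 at day 7 (-0.95, -1.92 to -0.04). PPP2R5A (-0.67, -1.31 to -0.06) and FBXW11 (-0.48, -0.96 to -0.01) also had day 7 intervals below 0. At day 3 the intervals of AXIN1, PPP2R5A and FBXW11 included 0.

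**Figure D4:**
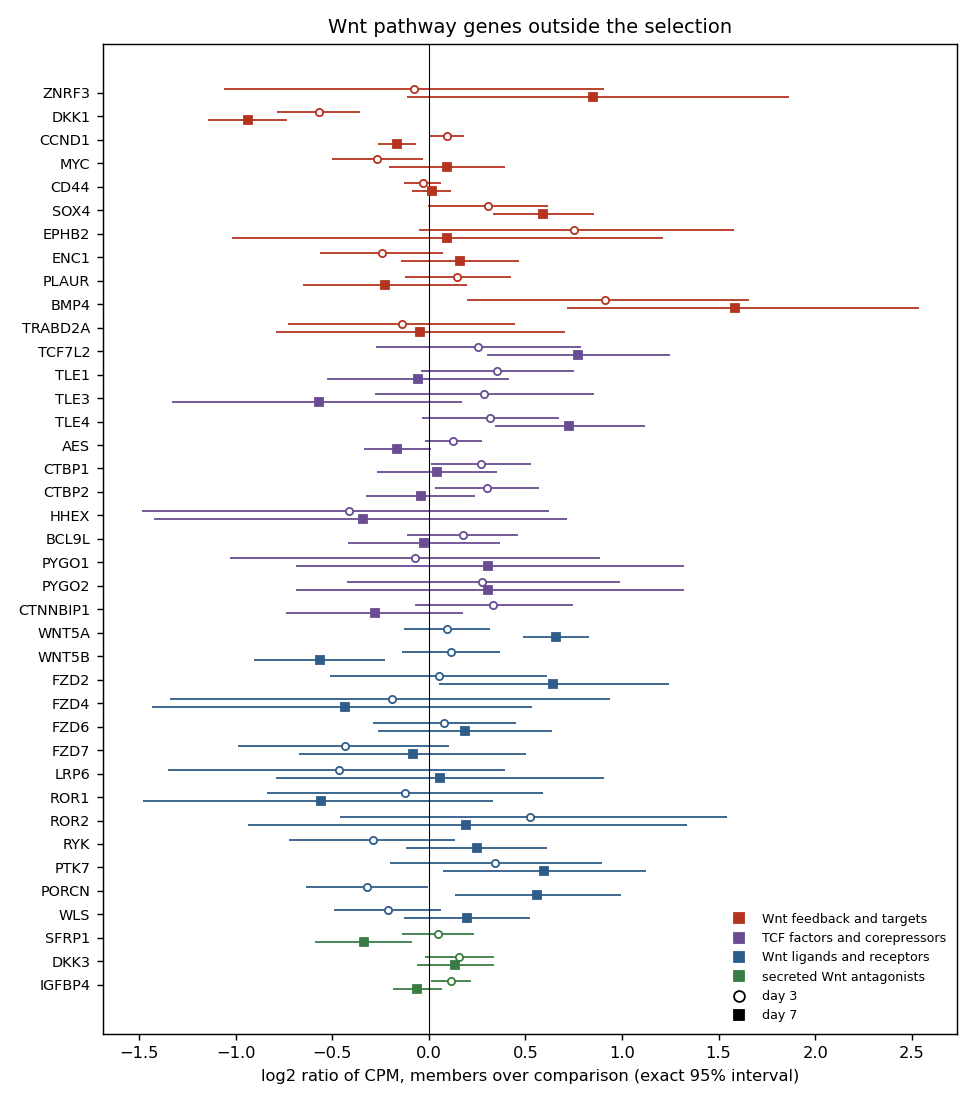
Log2 ratio of CPM between members and comparison cells (horizontal axis) for the 39 Wnt pathway genes outside the 4 that chose the cells with at least 30 UMIs at each day, coloured by list, at day 3 (open circles) and day 7 (filled squares), with exact conditional binomial 95% intervals. BMP4 lies to the right of 0 at both days, DKK1 to the left at both, and WNT5A and WNT5B part to opposite sides at day 7.

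Cells with more marker UMIs differed further from the comparison cells for several genes. From 0 to 1 to 2 or more marker UMIs, CCND2 stood at 28.5, 38.9 and 102.6 CPM at day 3 and at 33.4, 73.3 and 128.2 CPM at day 7. SOX4 followed at 33.6, 36.5 and 61.6 CPM, and at 47.7, 54.0 and 118.7 CPM. WNT5A at day 7 ran from 107.9 to 149.6 to 224.5 CPM, and DKK2 from 3.32 to 6.22 to 21.5 CPM. At day 3 DKK2 ran the other way, at 3.00, 1.60 and 0 CPM, from 14, 6 and 0 UMIs. BMP4 ran from 3.56 to 6.22 to 22.4 CPM at day 7 but stood at 5.56, 11.7 and 5.40 CPM at day 3. DKK1 was lower at each grade, at 97.2, 71.5 and 41.0 CPM at day 3 and 134.5, 75.3 and 56.8 CPM at day 7. Between cells of 2 or more and of exactly 1 marker UMI, CCND2 had log2 ratios of 1.40 (1.01 to 1.78) at day 3 and 0.81 (0.50 to 1.11) at day 7. That of DKK1 was -0.80 (-1.33 to -0.31) and -0.41 (-0.83 to -0.01). Some named genes turned at day 3. CSF3 (1.00, 0.42 to 1.56) and CXCL3 (0.69, 0.30 to 1.07) were higher in the upper grade than at 1 marker UMI, and TCF21 (-1.09, -1.72 to -0.51) was lower. The upper grade held 12 cells at day 3 and 45 at day 7, and its median depth was 75970 and 25110 UMIs, against 58720 and 28370 in cells with 1 marker UMI. Of the 10 genes highest in members at both days, 8 were higher still at 2 or more marker UMIs at day 7, against 55.3% of all genes, and 6 at day 3, against 40.4%. Of the 10 lowest, 9 were lower still at day 7, against 44.7% of all genes, and 6 at day 3, against 59.6%.

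**Figure D5:**
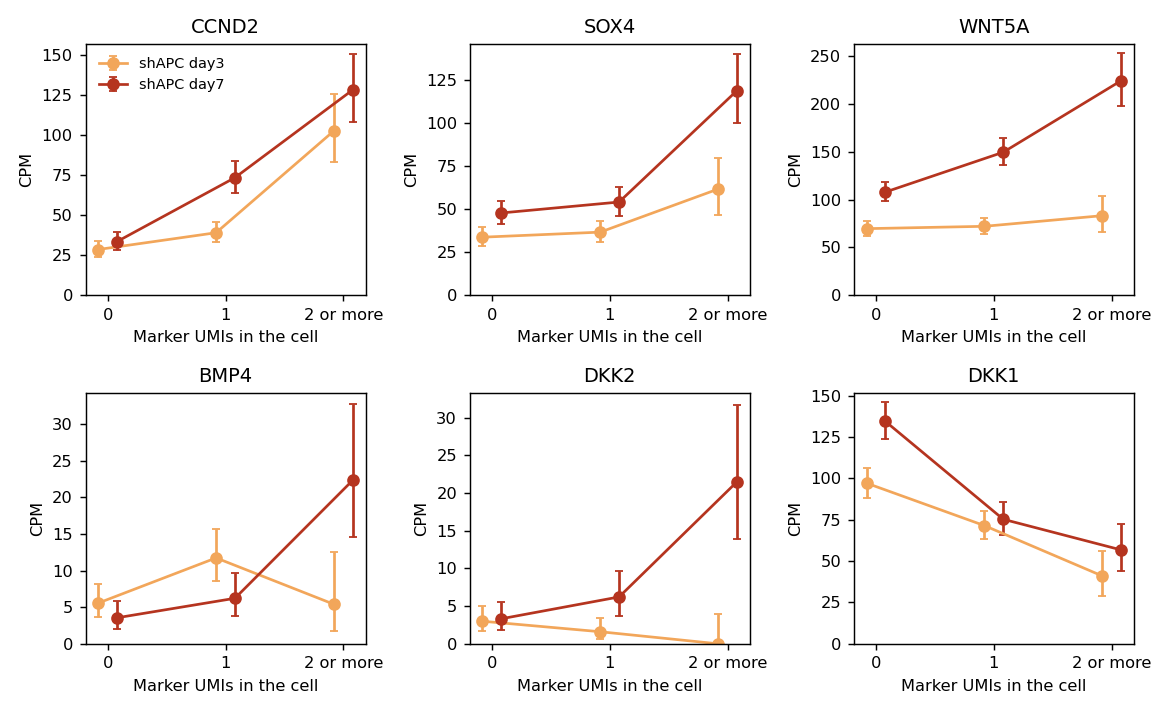
Level in CPM of 6 genes (vertical axes, from 0) in shAPC cells with 0, 1 or 2 or more marker UMIs at day 3 and day 7, with exact Poisson 95% intervals as bars. CCND2 climbs from 33.4 to 128.2 CPM at day 7, while DKK1 descends from 134.5 to 56.8 CPM.

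The cells above the mitochondrial limit, which the selection left out, gave a repeat in other cells of the same libraries. At day 7, 278 of 1220 such cells carried a marker UMI, and they were matched to as many cells without one. All 10 genes highest in kept members were higher here too, each with an interval above 0, and 9 of the 10 lowest were lower, 7 with an interval below 0. Over 4759 genes tested in these cells, 10.2% had an interval above 0 and 16.3% below. CCND2 had 559 UMIs against 355 (0.66, 0.46 to 0.85) and DKK1 250 against 550 (-1.14, -1.36 to -0.92). SOX4 (0.84), BMP4 (1.54), DKK2 (1.42), TCF7L2 (0.66), TLE4 (0.69) and WNT5A (0.50) were again higher and WNT5B (-0.50) lower, all with intervals that left out 0. TCF7 reached 45 UMIs against 15 (1.59, 0.71 to 2.54). CXCL3 turned, at 0.12 (-0.14 to 0.39), and CSF3 was closer to 0 than in kept cells, at -0.31 (-0.85 to 0.23). ZNRF3, at 0.85 in kept cells, had -0.16 (-1.20 to 0.86). At day 3 only 22 of 127 such cells were members, and 6 of the 10 higher and 5 of the 10 lower genes kept their direction, 1 and 3 of them with an interval that left out 0, against 6.74% above 0 and 5.71% below among 5582 genes. There BMP4 (0.62), SOX4 (0.16), WNT5A (-0.03) and TCF7L2 (-0.95) had intervals that included 0.

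Cell cycle genes gave no common direction at the 2 days. By scores of S and G2M gene lists, 15.9% of members (8.24 to 26.7) and 5.80% of comparison cells (1.60 to 14.2) were assigned to S phase at day 3, and 10.1% (5.75 to 16.1) and 14.8% (9.49 to 21.5) at day 7. G2M calls were 13.0% and 17.4% at day 3 and 8.73% and 8.05% at day 7. S or G2M together came to 29.0% against 23.2% at day 3 and 18.8% against 22.8% at day 7, with intervals that overlapped at both days. The median log2 ratio of 41 S phase genes was 0.28 at day 3 and -0.17 at day 7, and that of 54 G2M genes was -0.02 and 0.08. At day 3, members exceeded comparison cells at least 1.5-fold for 4 of the 41 S phase and 1 of the 54 G2M genes. They fell short by that fold for 3 and 4. The day 7 excess covered 1 S phase and 5 G2M genes, and the shortfall 6 and 1. Over all genes, an excess was found for 6.3% at day 3 and 5.67% at day 7, and a shortfall for 3.32% and 4.94%. RRM2, a subunit of ribonucleotide reductase, went from a ratio of 0.52 at day 3 to -0.55 at day 7. Phase calls alone were not read as cycling.

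Cell cycle inhibitors and arrest genes had 3 of 19 measured past 1.5-fold higher and none lower at each day, against 6.3% of all genes higher at day 3 and 5.67% at day 7. Their median log2 ratios were 0.19 and 0.22, where all genes had 0.04 and -0.00. At day 3, 11 of 19 were higher by any amount, near the 55.3% of all genes, and the summed level was lower in members, with 11972 UMIs against 12502 (-0.06, -0.10 to -0.03). At day 7, 16 of 19 were higher, and the sum was 7413 against 6217 UMIs (0.25, 0.21 to 0.30). CDKN1A, which encodes the inhibitor p21, had 3509 UMIs against 3077 at day 3 (0.19) and 3035 against 2610 at day 7 (0.22). GADD45A, a stress-induced growth arrest gene, had ratios of -0.36 and 1.14, and 225 of its 723 member UMIs at day 7 lay in 1 cell. Without the top cell of each side its day 7 ratio was 0.88. In the cells above the mitochondrial limit at day 7 it was -0.22.

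NF-kB targets and cytokines had no gene past 1.5-fold higher in members at either day. Of 18 measured at day 3, none was higher and 8 were lower past 1.5-fold, with a median of -0.34, where 3.32% of all genes were lower. At day 7 none of 16 was higher and 3 were lower, with a median of -0.14, where 4.94% of all genes were lower. Some day 3 values leaned on single comparison cells. For CXCL2 and CCL5, lower in members at day 3, 1 cell supplied over 50% of the comparison UMIs. CXCL8, a neutrophil chemokine, had 647 UMIs against 1174 at day 3 (-0.86) and 542 against 614 at day 7 (-0.18). One comparison cell held 307 of the 1174. CXCL1 had ratios of -0.29 and -0.47, and it shares sequence with CXCL2 and CXCL3. Without the top cell of each side the day 3 ratios were -0.75 (-0.91 to -0.59) for CXCL8 and -0.25 (-0.38 to -0.12) for CXCL1. In the day 3 cells above the mitochondrial limit both turned, CXCL8 to 0.61 (0.11 to 1.12) and CXCL1 to 0.38 (0.13 to 0.64), while at day 7 such cells had -0.22 and -0.31. SAA1, an acute-phase gene chosen after its values were seen, was found in 24.7% of members (18 to 32.4) and 36.7% of comparison cells (29.0 to 44.9) at day 7. ERK feedback genes were lower at day 3, with 3 of 19 past 1.5-fold and a median of -0.28, and had a median of 0.00 at day 7.

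Interferon-stimulated genes were mostly higher in members by any amount, 22 of 30 at day 3 and 21 of 26 at day 7. Their summed level had ratios of 0.18 (0.16 to 0.20) and 0.20 (0.13 to 0.26). Past 1.5-fold, they went in both directions. At day 3, 6 of 30 were higher and 3 lower with a median of 0.25, against 6.3% and 3.32% of all genes. At day 7, 6 of 26 were higher and 2 lower with a median of 0.32, against 5.67% and 4.94%. ISG15 had 6360 UMIs against 5472 at day 3 (0.22). IFIT1, chosen after its values were seen, was found in 34.0% of members (26.5 to 42.2) and 20.0% of comparison cells (13.9 to 27.3) at day 7. IFNB1 had 0 UMIs in members and 178 in comparison cells at day 3, 176 of them in 1 cell. The stress genes of ATF4 and CHOP had opposite leanings, with 3 of 19 higher by any amount and a median of -0.21 at day 3, and 17 of 19 higher and a median of 0.28 at day 7. Of all genes, 55.3% and 49.3% were higher by any amount. ATF3 was seen in 12 of 69 members and 20 of 69 comparison cells at day 3.

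The mesenchymal and matrix list, with 25 measured genes, had 3 past 1.5-fold higher and 2 lower at day 7, against 5.67% and 4.94% of all genes, and 0 and 1 at day 3, against 6.3% and 3.32%. Its medians were 0.13 at day 7 and 0.04 at day 3. At day 7 COL1A1, a fibrillar collagen gene, had 8700 UMIs against 6150 (2063 and 1458 CPM, log2 ratio 0.50, 0.45 to 0.55). COL1A2 and COL3A1, chosen after their values were seen, had 7118 against 4474 UMIs (0.67) and 689 against 311 (1.15). At day 3 COL1A1 had a ratio of 0.16 and COL1A2 of 0.27. In the cells above the mitochondrial limit at day 7 the ratios were 0.37 for COL1A1, 0.40 for COL1A2 and 0.63 for COL3A1, whereas in such cells at day 3 they were -0.31 (-0.40 to -0.23), -0.22 (-0.34 to -0.10) and 0.07 (-0.32 to 0.46). VIM, which encodes vimentin, had ratios of -0.14 and -0.05. FN1 had 15120 UMIs in members against 14269 at day 3 and 10701 against 12877 at day 7. THY1, another mesenchymal marker, was lower at both days, with 931 against 1109 and 687 against 822. By any amount, 13 of the 25 listed genes were higher at day 3 and 15 at day 7, against 55.3% and 49.3% of all genes. The simple keratin and junction genes of the epithelial list had 1 of 8 past 1.5-fold higher and none lower at day 3, and none of 8 at day 7.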

How the data were processed

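Single-cell libraries of HCEC 1CT cells, 1 for each of 4 groups, were analysed. The authors aligned the reads to GRCh38 with Cell Ranger and STAR and deposited UMI counts per gene and barcode, without normalization. The labels name Cell Ranger 3.0.2, and the file headers give 3.0.2 for shScr and 3.0.0 for shAPC, so the version cannot be told apart from the hairpin. The labels call the virus retroviral and the kit v2, the methods lentiviral and V3.

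The members, gene lists and comparisons were chosen with earlier results of these data known. Kept cells had at least 2000 genes and under 5% mitochondrial UMIs. No doublet caller was used, and leaving out the 5% deepest cells was an alternative. Each member was matched to 1 cell without a marker UMI by total UMIs, UMIs were summed per side and scaled to CPM by the total, and ratios over all genes used a pseudocount of 1 CPM and a minimum of 20 CPM. Named genes were the 4 markers, APC, genes of the Wnt lists with at least 10 UMIs, the 10 highest and 10 lowest genes by the smaller of their ratios at the 2 days, and up to 3 of the most abundant genes of each other list. Other genes were named after their values were seen. Intervals are exact at 95% and treat UMIs as independent. Phases were scored in scanpy 1.11.5 with the lists of Seurat 5.3.0 after thinning to 10000 UMIs, which left out 1 member and 1 comparison cell at day 7. edgeR 4.0.16 (R 4.3.3) and DESeq2 1.42.0 gave scaling factors only. The scripts (Python 3.11.15, numpy 2.4.6, scipy 1.17.1) were tested on simulated data. Alternatives changed the selection, matching, filters, scaling, pseudocount and fold. Those on cells over the mitochondrial limit, barcodes held by another library, the top cell and matching on mitochondrial share were chosen after seeing the data.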

Additional observations from a re-analysis of the deposited data

Results flagged for a closer look

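Barcodes outside the selection in the shAPC libraries carried the 4 feedback transcripts above the level in the matching shScr barcodes. Their summed level at or over the mitochondrial limit was 4.85 CPM (3.20 to 7.06) in shAPC day 3 and 20.6 CPM (18.9 to 22.4) in shAPC day 7, against 0.633 and 1.10 CPM in shScr. In shAPC day 7 barcodes under 2000 genes it was 9.46 CPM (4.72 to 16.9) from 11 UMIs, against 0.452 CPM in shScr. No explanation was tested.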

How the results depend on the processing

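No paired analysis was possible because each group has 1 library. Depth and sparse marker transcripts limit all results, since 1 UMI decides membership for most cells. The thinned share of cells with a marker UMI moved to 1.21% at day 3 and 4.33% at day 7 with thinning to 5000 UMIs, to 0.175% and 0.982% with at least 2 marker UMIs, and to 11.0% at day 7 with a mitochondrial limit of 10%. Counts of genes past the fold were unstable. The 83 higher genes at day 3 became 34 with 3 comparison cells per member, 405 with members chosen without AXIN2, 607 with at least 2 marker UMIs, 55 with TMM, 143 with totals that left out mitochondrial and ribosomal genes, 129 in G1 cells, 47 with a pseudocount of 5, 6 at 100 CPM, 1161 with no minimum and 9 at 2-fold. The 49 lower genes at day 3 became 30 without depth matching, 439 without AXIN2, 789 with at least 2 marker UMIs, 83 with the other totals, 10 at 100 CPM, 657 with no minimum and 15 at 2-fold. At day 7 the 87 higher and 73 lower genes became 215 and 190 with AXIN2 alone, 131 and 130 without AXIN2, 453 and 338 with at least 2 marker UMIs, 177 and 160 with the other totals, 11 and 12 at 100 CPM, 1011 and 870 with no minimum, and 9 and 9 at 2-fold. The higher genes became 156 in G1 cells and the lower genes 46 with a pseudocount of 5. Fewer cells, genes or a lower minimum shift these counts by construction. The median of Wnt targets at day 3 was 0.42 with at least 2 marker UMIs. Against all genes, TMM shifted every ratio by -0.06 at day 3 and -0.01 at day 7.

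In the day 3 cells over the mitochondrial limit, the direction turned for RAB27B (-0.59), KLF9 (-0.59), ZNF503 (-0.0697), TP53INP1 (-0.23), SDC4 (0.48), DKK1 (0.25), CXCL3 (0.39), SLC7A2 (0.37) and DBI (0.0588), and at day 7 for CXCL3 (0.12). SLC7A2 at day 3 also turned without AXIN2 in the rule (0.70), without shared barcodes (0.21) and with mitochondrial share matched (0.12), and PSG4 without the 5% deepest cells (0.0105). The cause was not tested. Of 440 values of the 20 named genes at each day, 366 at day 3 and 394 at day 7 stayed within the interval of the value given. APC and the share of cells in S or G2M stayed within theirs under every alternative run, at -3.13 to 18.2 points between members and comparison cells at day 3 and -6.45 to 4.55 at day 7.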

Other observations

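The BMP and TGF-beta list and the Notch and Hedgehog list were also read. Of 23 measured BMP and TGF-beta genes 1 was past 1.5-fold higher and 1 lower at each day. GREM1, a secreted BMP antagonist, had 2794 UMIs in members against 1972 in comparison cells at day 3 (log2 ratio 0.50) and 2997 against 2327 at day 7 (0.37), and in the cells over the mitochondrial limit -0.18 (-0.34 to -0.03) at day 3 and 0.29 (0.23 to 0.35) at day 7. ID1, a target of BMP signalling that was chosen after its values were seen, had 521 UMIs against 713 (-0.45) and 456 against 631 (-0.47). Of 12 Notch and Hedgehog genes 1 was higher and 1 lower at day 3, and 2 and 1 at day 7, against the same shares of all genes. The nuclear long noncoding RNA NEAT1 had ratios of 0.21 and 0.20, and MALAT1 of 0.05 and 0.08.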
